A study of Mus musculus with 2 samples.

Results

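Efnb2, Efnb1, Efna1, Ephb4, Unc5b, Ntn4, Robo1, Robo4 and Plxnd1 are genes of ephrins, of an Eph receptor, of a netrin and of receptors for netrins, Slits and semaphorins that endothelial cells use to read their neighbours and surroundings. These 9 genes were taken by name from the 19831 genes listed in both expression tables, and all 9 were found. The cells were endothelial cells sorted from mouse tumours on CD31, a surface protein of the endothelium, and sequenced in droplets from the 3′ ends of their transcripts. One library came from control and 1 from Nf2 knockout mice, all adults of the C57BL/6 strain. Nf2 encodes merlin, an upstream regulator of the Hippo pathway, which restrains the coactivators YAP and TAZ. The sources used here do not name the tumour, the Cre driver or promoter, the exons removed or how many mice went into each library. With 1 library per group there was no replicate and no test, so every interval, given in brackets at 95%, covers counting error only and not the spread between mice.

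Ephrins are membrane-bound ligands of Eph receptor kinases, and ligand and receptor can both signal when cells touch. Ephrin-B2, the product of Efnb2, marks arterial endothelium and also acts in sprouting, whereas its receptor EphB4 (Ephb4) marks veins. Unc5b is a netrin receptor of endothelial tip cells and arteries, Ntn4 encodes netrin-4, a secreted relative of laminins, and Plxnd1 encodes the receptor of the semaphorin Sema3E. Robo1 is a receptor of Slit proteins, and Robo4 is a Robo receptor largely restricted to endothelium that is known to bind Unc5b.

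The promoters of the 3 genes on which the differences below turn most are shown with the motifs found in them. Each window runs from 250 bases before to 50 bases after the start of the gene in RefSeq (GRCm38.p6), 5′ to 3′ on the strand of the gene, with matches in capitals. The windows are chr8:8661193-8661492 (minus strand), chr10:60831532-60831831 (minus strand) and chr10:93640799-93641098 (plus strand).
Efnb2: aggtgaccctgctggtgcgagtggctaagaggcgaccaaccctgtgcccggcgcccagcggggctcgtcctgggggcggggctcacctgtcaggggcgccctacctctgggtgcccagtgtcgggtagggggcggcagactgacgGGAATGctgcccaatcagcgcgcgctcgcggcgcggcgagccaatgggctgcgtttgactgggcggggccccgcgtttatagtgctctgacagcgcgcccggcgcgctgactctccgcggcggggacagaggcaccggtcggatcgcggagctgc
Unc5b: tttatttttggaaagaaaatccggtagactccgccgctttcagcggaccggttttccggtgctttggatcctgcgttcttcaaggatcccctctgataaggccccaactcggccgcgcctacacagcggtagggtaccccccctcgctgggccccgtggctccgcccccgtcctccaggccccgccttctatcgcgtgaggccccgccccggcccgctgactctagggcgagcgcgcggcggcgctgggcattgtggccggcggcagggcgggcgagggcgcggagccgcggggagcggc
Ntn4: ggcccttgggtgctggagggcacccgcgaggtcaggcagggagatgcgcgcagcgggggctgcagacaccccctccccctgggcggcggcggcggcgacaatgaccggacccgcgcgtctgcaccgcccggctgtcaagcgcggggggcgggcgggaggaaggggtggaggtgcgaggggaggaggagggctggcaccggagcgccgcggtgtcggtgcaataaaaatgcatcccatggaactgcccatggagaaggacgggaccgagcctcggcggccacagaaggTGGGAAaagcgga
Motif cores for TEAD (GGAATG), RBPJ (TGGGAA), AP-1 (TGACTCA), SOX (ACAAAG) and the E-box (CACGTG) were searched for on both strands, and the matches did not overlap each other. Efnb2 held GGAATG with its first base 105 bases before the start, as did 14.7% of 32851 RefSeq windows of this length. Ntn4 held TGGGAA, found in 25.6% of windows, from base 38 after the start. Unc5b held none of the 5 cores, and neither did Ephb4, Robo1, Robo4 or the 2 windows of Efna1. Plxnd1 held GGAATG on the opposite strand, and Efnb1 held TGGGAA at 2 places. The AP-1, SOX and E-box cores were in none of the members' windows, against 5.2%, 18.7% and 7.15% of all windows. Such a match is a run of letters and not evidence of binding.

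After filtering, 1450 control cells with 27363475 UMIs (molecules counted by unique molecular identifiers) and 2691 knockout cells with 51749913 UMIs were retained. The median cell held 16808 UMIs in the control and 17150 in the knockout. Cell barcodes were marked as run 1 or run 2 within each library. What a run stands for is not given in the sources used here, so runs are set side by side and not taken as replicates. All 15 endothelial markers had UMIs in both libraries and summed to 9354 and 6856 CPM in control and knockout cells, where CPM are UMIs per 1000000 UMIs of a library. By the size rule given below, 5 of the 15 were lower in the knockout and 0 were higher. Markers of other cells summed to 64.5 and 79.7 CPM for macrophages, 59.4 and 69.02 CPM for neutrophils, 3.18 and 3.52 CPM for lymphocytes, 20.9 and 16.4 CPM for fibroblasts and 50.7 and 23.1 CPM for erythroid cells. Those of pericytes and smooth muscle summed to 173 and 62.6 CPM and those of epithelial or tumour cells to 8.15 and 33.6 CPM, in the same order, and the part of these cells in the differences below was not tested. Krt19, of the epithelial list, was at 0 UMIs in the control library. Nf2 itself stood at 21.9 CPM for control and 20.1 CPM for knockout cells, a ratio of 0.9198 (0.831 to 1.02). Since 3′ tags need not touch the deleted exons, this level does not check the labels. One barcode was shared between the libraries, and 1 between the runs of each.

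In the knockout library Efnb2 and Unc5b were each over 5-fold lower, Robo1 was lower still at a far smaller level, Ntn4 was 10.9-fold higher and Efnb1 was higher. Efna1, Ephb4, Robo4 and Plxnd1 differed by less than 1.5-fold. A gene was counted as lower or higher where its ratio of CPM, knockout over control, reached 1.5 in either direction, the interval excluded 1 and its mean level was at least 20 CPM. Of the 9 genes 6 reached that mean: 2 were lower (Efnb2 and Unc5b), against 5.49% of the 5830 genes that reached it, and none was higher, against 2.74%. Their median log2 ratio was −0.47, against −0.03 over all 5830 genes. Without a minimum level 3 of the 9 were lower, Robo1 being the third, and Efnb1 and Ntn4 were higher, against 5.77% and 6.87% of 17973 genes. In all 9 genes the 2 knockout runs lay on 1 side of both control runs, below for 6 genes and above for 3. Among the 6 genes at the minimum level these were 5 and 1, and such orders were met by 37.7% and 28.3% of the 5830 genes.

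**Figure D1:**
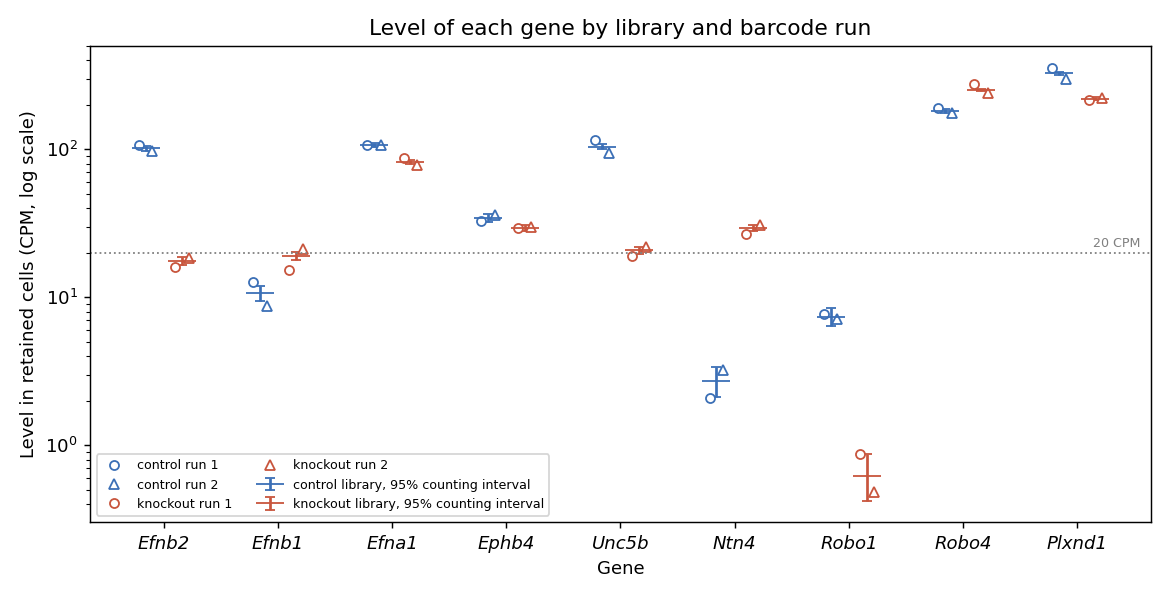
Level of each of the 9 genes in UMIs per 1000000 UMIs of the run (CPM, log scale) in the 2 runs of the control and the 2 runs of the knockout library. Horizontal marks with bars give the level of a whole library with its 95% Poisson interval. Knockout runs lie below both control runs for Efnb2, Efna1, Ephb4, Unc5b, Robo1 and Plxnd1 and above them for Efnb1, Ntn4 and Robo4.

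Among the ephrin ligands, Efnb2 (ENSMUSG00000001300.16, chr8:8617434-8661242, minus strand of GRCm38) stood at 106 and 97.7 CPM in control runs 1 and 2 and 15.9 and 18.5 CPM in knockout runs 1 and 2. The control runs were close together and far above both knockout runs. Summed over runs the gene had 102 CPM (98.03 to 106) for control and 17.6 CPM (16.5 to 18.8) for knockout cells, 5.79-fold lower (5.37 to 6.24) in the knockout. Efnb1 (ENSMUSG00000031217.8, chrX:99136130-99148991, plus strand), a second B-class ligand that shares Eph receptors with ephrin-B2, went the other way. It stood at 12.8 and 8.75 CPM in control runs 1 and 2 and 15.2 and 21.2 CPM in knockout runs 1 and 2. The lowest knockout run lay above the highest control run by less than the runs of 1 library differed from each other. Its ratio was 1.79 (1.57 to 2.05), at a mean of 14.8 CPM and so below the minimum level. Efna1 (ENSMUSG00000027954.9, chr3:89271733-89281142, minus strand), an A-class ephrin anchored to the membrane by a lipid and known as a ligand of EphA2, stood at 107 and 107 CPM in control runs 1 and 2 and 88.1 and 78.9 CPM in knockout runs 1 and 2. Its ratio of 0.769 (0.733 to 0.806) did not reach 1.5-fold.

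Ephb4 (ENSMUSG00000029710.15, chr5:137350109-137378669, plus strand), the receptor of ephrin-B2, stood at 32.6 and 36.2 CPM in control runs 1 and 2 and 29.3 and 29.7 CPM in knockout runs 1 and 2. All runs lay close together, and the ratio was 0.856 (0.789 to 0.929). Relative to the control, ligand and receptor therefore differed unequally, by 5.79-fold for Efnb2 and by 1.17-fold for Ephb4. Zan, which overlaps Ephb4 on the opposite strand, had 2 UMIs in the control and 9 UMIs in the knockout library.

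Unc5b (ENSMUSG00000020099.8, chr10:60762593-60831581, minus strand), the netrin receptor, stood at 116 and 94.2 CPM in control runs 1 and 2 and 18.9 and 21.7 CPM in knockout runs 1 and 2. As with Efnb2, no knockout run came near a control run. Its sums were 105 CPM (101 to 108) for control and 20.7 CPM (19.5 to 22.01) for knockout cells, 5.04-fold lower (4.698 to 5.41) in the knockout. Ntn4 (ENSMUSG00000020019.4, chr10:93640681-93747207, plus strand) was nearly missing from the control library, with 74 UMIs against 1521 in the knockout. It stood at 2.102 and 3.24 CPM in control runs 1 and 2 and 26.7 and 30.9 CPM in knockout runs 1 and 2. Its ratio was 10.9 (8.604 to 13.9), the largest increase among the 9 genes, at a mean level of 16.05 CPM. In the 993 control and 455 knockout cells left out with leukocyte-led or shallow clusters, Ntn4 stood at 2.88 and 23.8 CPM, so its control level was no higher in the retained cells than in those left out. Gm15915, on the opposite strand within Ntn4, had 0 and 5 UMIs.

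Robo1 (ENSMUSG00000022883.11, chr16:72308306-73046095, plus strand) had 203 UMIs in control and 32 in knockout cells. It stood at 7.71 and 7.16 CPM in control runs 1 and 2 and 0.868 and 0.4802 CPM in knockout runs 1 and 2. Both control runs lay well above both knockout runs, which made the gene 12.0-fold lower (8.24 to 18.01) in the knockout, at the lowest mean of the 9 genes (4.02 CPM). Robo4 (ENSMUSG00000032125.20, chr9:37401897-37415115, plus strand) stood at 189 and 175 CPM in control runs 1 and 2 and 275 and 239.8 CPM in knockout runs 1 and 2. Its ratio was 1.39 (1.34 to 1.44), below the 1.5-fold limit. Plxnd1 (ENSMUSG00000030123.15, chr6:115954811-115995005, minus strand) stood at 357 and 300.3 CPM in control runs 1 and 2 and 216 and 223 CPM in knockout runs 1 and 2. The knockout runs lay together below both control runs, with a ratio of 0.675 (0.656 to 0.694) just inside the limit of 0.667.

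Shares of cells with a UMI gave the same order when every cell was thinned to 10000 UMIs, which left out 400 control and 502 knockout cells that were shallower. Efnb2 had a UMI in 46.6% (43.5 to 49.6) of control and 11.97% (10.6 to 13.4) of knockout cells, and unthinned in 53.7% and 18.8%. Unc5b had one in 49.2% (46.2 to 52.3) of control and 13.2% (11.9 to 14.7) of knockout cells, and unthinned in 54.0% and 19.5%. Most knockout cells thus had no UMI of either gene at this depth, whereas nearly as many control cells had one as did not. Ntn4 had a UMI in 2.0% (1.24 to 3.04) of control and 18.7% (17.1 to 20.4) of knockout cells (3.59% and 23.4% unthinned). Robo1 had one in 5.905% (4.56 to 7.51) of control and 0.777% (0.453 to 1.24) of knockout cells (6.83% and 1.003% unthinned). Efnb1 was found in 8.48% (6.86 to 10.3) of control and 12.8% (11.5 to 14.3) of knockout cells (13.2% and 21.7% unthinned). Robo4 and Plxnd1 were found in most cells of both libraries. Thinned, Robo4 had a UMI in 81.1% and 87.3% and Plxnd1 in 93.1% and 81.8%, against 81.7% and 93.8% and 85.9% and 87.9% unthinned. Ephb4 was found in 26.95% and 23.2% and Efna1 in 60.5% and 52.99%, against 39.4% and 36.05% and 67.2% and 68.7% unthinned.

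As a background, the same shares were taken in 836 control and 299 knockout cells of leukocyte-led clusters. Their median depths were 1870 and 2455 UMIs, and they were thinned like the retained cells to 1000 UMIs. Of the control cells 537 came from a neutrophil-led cluster, and of the knockout cells 282 came from a cluster led by AY036118 and Lyz2. The 2 backgrounds thus differed in kind of cell. Robo4 had a UMI in 11.5% and 15.1% of them, against 16.3% and 22.3% of retained cells, so they are not shown to hold free RNA only. Efnb2 had a UMI in 6.22% and 0.669% of control and knockout cells of these clusters, against 9.03% and 1.67% of retained cells. Unc5b had one in 4.78% and 1.67%, against 8.41% and 2.23%. Both genes were found more often in retained cells in either library, and the intervals overlapped except for Unc5b in the control. The knockout shares of these clusters rested on 2 cells for Efnb2 and 5 for Unc5b. Per UMI, Efnb2 in all cells left out stood at 67.2 CPM for control and 15.7 CPM for knockout cells, against 102 and 17.6 CPM in retained cells. Unc5b stood at 45.6 and 19.5 CPM, against 105 and 20.7 CPM. The retained knockout levels of both genes were thus near those of the cells left out. Ntn4 was in 0.239% and 1.67%, against 0.207% and 2.82%, so that its control share was at the background. Its knockout share was higher in retained cells (2.23 to 3.52) than in these clusters (0.545 to 3.86, 5 cells). These intervals overlapped, so at this depth it was not told apart from the background. Per UMI, Ntn4 stood at 23.8 CPM in all knockout cells left out, against 29.4 CPM in retained knockout cells. Robo1 was in 0.598% and 0.334% (5 and 1 cells), against 0.414% and 0.111% (6 and 3 cells). Its intervals overlapped in both libraries, so at this depth it was not told apart from the background. Per UMI, however, Robo1 in all cells left out stood at 2.88 and 1.63 CPM, so that its retained control level of 7.42 CPM was above theirs and its knockout level was not. For Efnb1 the shares were 0.239% and 1.67%, against 1.45% and 2.19%.

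**Figure D2:**
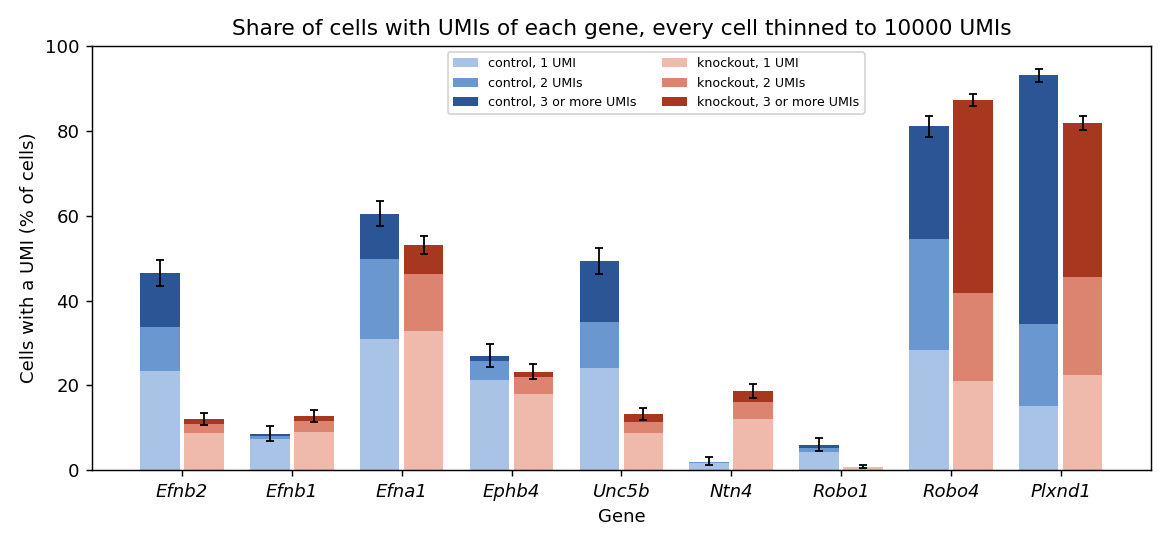
Share of cells with at least 1 UMI of each gene (percent), each cell thinned to 10000 UMIs, in the control and the knockout library. Shades divide each bar into cells with 1, 2 and 3 or more UMIs, and black bars are 95% Clopper-Pearson intervals of the whole share. Efnb2 and Unc5b are found in 46.6% and 49.2% of control cells and in 11.97% and 13.2% of knockout cells, and Ntn4 in 2.0% and 18.7%.

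Cells were ranked by markers of arterial, capillary, venous, tip, cycling and interferon-responding endothelium. The 20% of each library that scored highest (290 control and 538 knockout cells) formed a band. Some of these markers themselves differed between the libraries. By the size rule 9 of 15 tip markers were lower in the knockout and 3 were higher. Of 11 venous markers 1 was lower and 4 were higher, and no cycling or interferon marker was counted. The arterial markers summed to 381 CPM for control and 636 CPM for knockout cells. The score limit of the arterial-high band was 0.538 in the control and 0.444 in the knockout. Whether a band held like states in both libraries was not tested. A band is a range of a score and not a cell type, and the bands overlap. In each library between 26 and 242 cells lay near the limit of a band. Efnb2 was lower in the knockout in all 6 bands, with ratios from 0.146 to 0.221. In control cells it was highest in the arterial-high band, at 205 CPM, followed by the capillary-high band, at 166 CPM. In knockout cells these bands stood at 37.3 CPM (33.4 to 41.5) and 36.5 CPM (32.8 to 40.5) and were not told apart. Relative to the other cells of the same library, the arterial-high band held 2.64 times (2.44 to 2.85) as much Efnb2 in the control and 2.77 times (2.41 to 3.18) in the knockout, with overlapping intervals. The capillary-high band held 1.89 times (1.74 to 2.05) as much in the control and 2.75 times (2.401 to 3.15) in the knockout, with intervals that did not overlap. The venous-high band was level with the other cells, at 0.999 times (0.906 to 1.099) their Efnb2 in the control. It stood at 102 CPM there, against 5.68 CPM in control cells of the venous-like cluster described below. Ephb4 was highest in the venous-high band, at 61.5 CPM for control and 54.5 CPM for knockout cells, and lowest in the tip-high band, at 19.1 CPM for control and 13.7 CPM for knockout cells. It was also above the other cells in the capillary-high band, at 1.59 times their level in the control and 1.92 times in the knockout, and in the arterial-high band, at 1.56 and 1.45 times.

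Unc5b was highest in the tip-high band, at 176 CPM for control and 56.5 CPM for knockout cells, and lowest in the venous-high band, at 39.97 CPM for control and 4.37 CPM for knockout cells. Its ratios ran from 0.109 in the venous-high to 0.321 in the tip-high band. The tip-high band held 2.21 times (2.05 to 2.38) the level of the other cells in the control and 5.397 times (4.77 to 6.11) in the knockout. What was left of Unc5b in the knockout library was thus more unevenly placed, beyond counting error. Ntn4 was also highest in the tip-high band, at 4.39 CPM for control and 56.4 CPM for knockout cells. In the capillary-high band it had no UMI in the control, where 3 UMIs would have been 0.598 CPM, and 3.85 CPM in the knockout, at least 6.44-fold higher. In the venous-high band it stood at 2.94 CPM for control and 5.41 CPM for knockout cells, a ratio of 1.84 (1.02 to 3.52). Robo1 in the control was highest in the tip-high band, at 13.6 CPM, against 0.433 CPM in the knockout.

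Efnb1 ran from 4.53 CPM in the tip-high to 21.1 CPM in the arterial-high band of the control, and from 9.62 CPM in the tip-high to 43.7 CPM in the capillary-high band of the knockout. Its ratios ran from 1.75 to 2.26, those of Robo4 from 1.28 to 1.43 and those of Plxnd1 from 0.657 to 0.7598. Efna1 ran from 0.532 in the arterial-high to 0.876 in the tip-high band. By the size rule Efna1 was lower in the arterial-high, capillary-high (0.637), venous-high (0.653) and interferon-high (0.639) bands. It was not counted in the tip-high and cycling-high bands. Plxnd1 was lower in the venous-high band (0.657) and not counted in the others. In control cells the arterial-high band held 1.46 times (1.34 to 1.59) the Efna1 of the other cells, and in knockout cells 0.917 times (0.844 to 0.995). Of the 6 genes at the minimum level 5 had a ratio below 1 in every band and 1, Robo4, a ratio above 1, against 26.8% and 19.1% of the 5830 genes. Over all 9 genes these counts were 6 and 3, and the 6 became 5 or 4 under some of the alternatives.

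**Figure D3:**
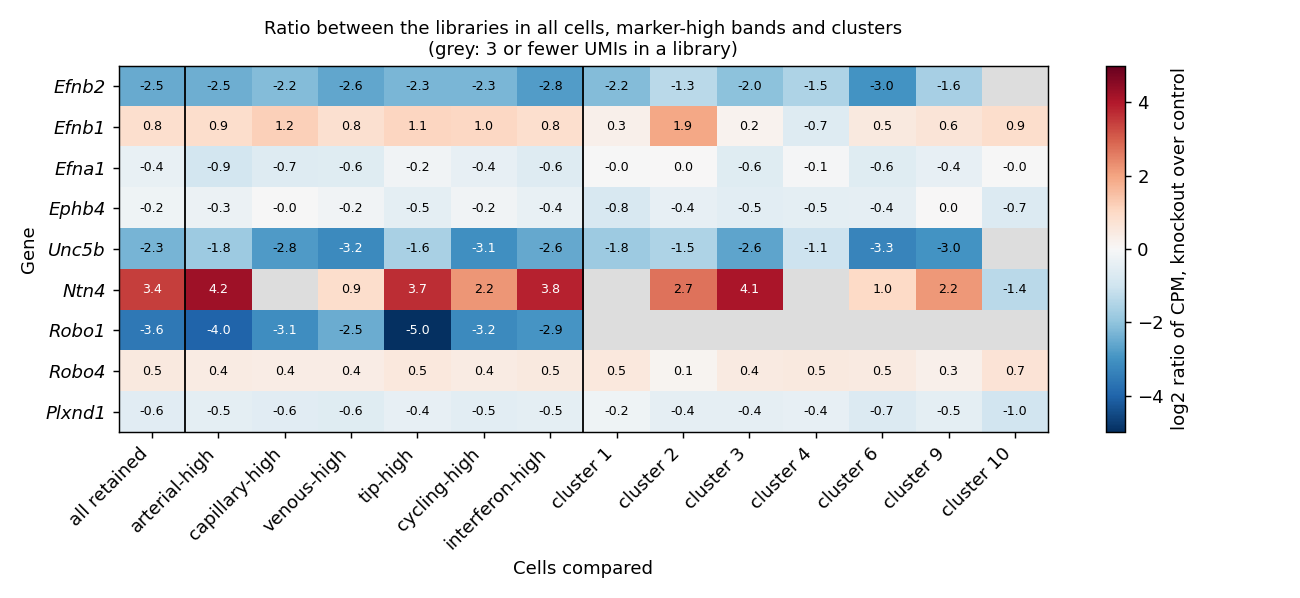
log2 ratio of CPM, knockout over control, of each gene (rows) over all retained cells, in the 6 bands of high marker score and in the 7 clusters with enough cells in both libraries (columns), as colour and number, with grey for 3 or fewer UMIs in a library. Efnb2 and Unc5b are negative in every band, and Ntn4 and Efnb1 are positive in every band that has a value.

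The retained cells were also clustered without any gene of the guidance list, which gave 11 clusters. They are numbered here and described by their leading genes, because few had 3 markers of 1 kind among them. Control and knockout cells lay largely apart, and where nearly all cells of a cluster came from 1 library, kind of cell and library cannot be told apart. Cluster 0, led by Kcnj8 and Gal, held 516 control and 13 knockout cells, and cluster 7, led by Col13a1, held 175 and 29. Cluster 1, led by Cldn4 and Chga, held 45 and 786, and cluster 5, with Lpl and Cd36 among its leading genes, 12 and 285. Clusters 6 and 9 were led by genes of cycling cells, cluster 3 by interferon-induced genes, cluster 2 by Vegfa, Bnip3 and Slc2a1, and cluster 4 by Rgs2. Cluster 10 was venous-like, with Ackr1, Selp and Sele. Efnb2, in cluster 7, and Ntn4, in cluster 1, were among the 10 leading genes of a cluster, and neither was used to form it. Leading genes were ranked against all other cells of both libraries. In clusters mostly of 1 library they therefore also carry the difference between the libraries. In the 45 control cells of cluster 1 Ntn4 stood at 1.66 CPM. Kcnj8 is also on the list for pericytes and smooth muscle, as is Tagln, a leading gene of cluster 5. Cldn4 is on the list for epithelial or tumour cells, and Hbb-bs, a leading gene of cluster 0, on that for erythroid cells. Their part in the levels of these clusters was not tested.

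Efnb2 in control cells stood at 258 CPM in cluster 7, where Hey1, a Notch target of arterial endothelium, was also a leading gene, at 114 CPM in cluster 0, 107 in cluster 6 and 101 in cluster 3. The intervals of the last 3 overlapped from 1 to the next. It then went down over clusters 9, 4, 1 and 2 to 5.68 CPM in the venous-like cluster. In knockout cells no cluster of at least 30 cells was above 24.6 CPM, and the venous-like cluster was lowest among these, at 4.45 CPM. The 29 knockout cells of cluster 7, however, stood at 223 CPM (173 to 282, 69 UMIs), a ratio to the control of 0.864 (0.6603 to 1.12), not told apart from 1. The 13 knockout cells of cluster 0 stood at 69.6 CPM (41.9 to 109, 19 UMIs), a ratio of 0.612 (0.367 to 0.9603). Both intervals of the level lay above those of all knockout clusters of at least 30 cells. In the 7 clusters with at least 30 cells of each library the ratio of Efnb2 ran from 0.127 to 0.394 outside the venous-like cluster, where it was 0.783 (0.211 to 4.32), not told apart from 1 at this depth. Ephb4 was highest of the 7 in the venous-like cluster, at 116 and 71.5 CPM, and lowest among the 7 in cluster 2, at 12.5 and 9.29 CPM.

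Unc5b was highest of the 7 in cluster 2 in both libraries, at 217 and 75.2 CPM, a ratio of 0.347 (0.305 to 0.394). In cluster 7 its ratio was 0.412 (0.215 to 0.723), and in cluster 0 it was 0.459 (0.262 to 0.748), from 13 and 16 knockout UMIs. In the venous-like cluster it had no UMI in the control, where 3 UMIs would have been 5.68 CPM, and 0.741 CPM in the knockout. Ntn4 in knockout cells stood at 77.7 CPM in cluster 2, 48.9 CPM in cluster 1 and 19.4 CPM in cluster 3, and at 12.1 CPM or less in the other clusters of at least 30 knockout cells. The 13 knockout cells of cluster 0 stood at 14.6 CPM (3.99 to 37.5, 4 UMIs). Clusters 1 and 2 held 52.6% and 30.2% of its knockout UMIs, from 29.2% and 12.0% of the cells. In cluster 2 the knockout level was 6.65 times (4.57 to 10.04) that of the control, and in cluster 3 it was 17.1 times (7.09 to 54.01). In the venous-like cluster the order was the reverse, 18.9 CPM (10 UMIs) for control and 7.41 CPM for knockout cells, with 62.2 CPM in control run 1 and 7.22 CPM in control run 2.

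Efnb1 in knockout cells was highest in cluster 5, at 95.02 CPM, followed by the venous-like cluster, at 41.5 CPM. Cluster 5 gave 33.2% of the knockout UMIs of Efnb1 from 10.6% of the cells, and had too few control cells for a ratio (12 cells, against a limit of 30). Tagln, of the pericyte and smooth muscle list, is a leading gene of cluster 5, and its part in this level was not tested. Control Efnb1 was highest in the venous-like cluster, at 22.7 CPM, with an interval that overlapped that of cluster 4, at 19.5 CPM. Robo1 in control cells stood at 15.7 CPM in cluster 7, 11.7 CPM in cluster 2 and 9.62 CPM in cluster 0, with overlapping intervals, and no cluster of at least 30 knockout cells was above 1.39 CPM. The knockout cells of clusters 0 and 7 had 1 UMI of Robo1 each. Robo4 varied little, from 144 to 214 CPM over control clusters of at least 41 cells and from 191 to 280.4 CPM over those of the knockout. Plxnd1 was highest in cluster 0 of the control, at 378 CPM, and lowest in the venous-like cluster of the knockout, at 116 CPM. Efna1 was at 161 CPM in control cluster 7 and at 58.7 and 57.5 CPM in the venous-like cluster, its lowest in either library.

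**Figure D4:**
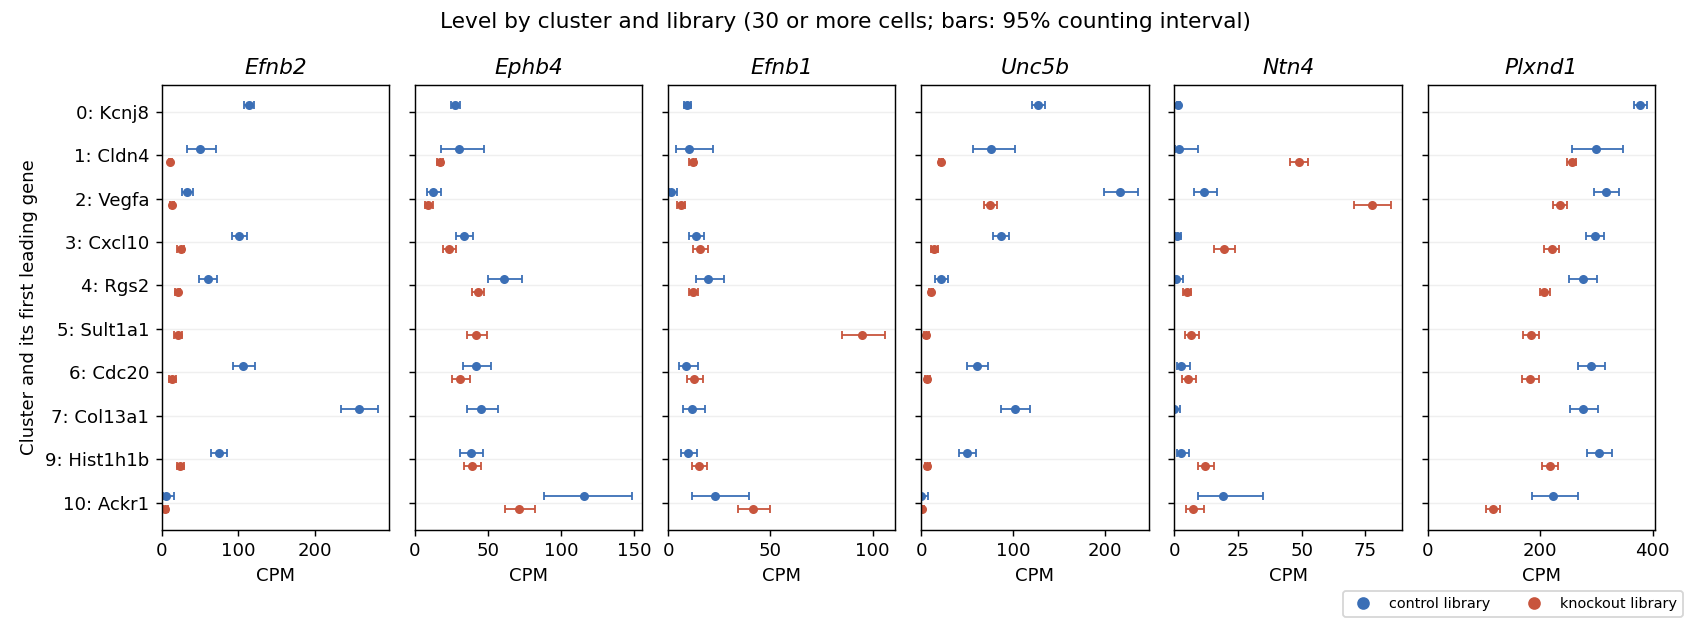
Level of 6 of the genes (CPM) in each cluster, named by its first leading gene, for every library with at least 30 cells there, with 95% Poisson intervals. Cluster 8, with 32 control and 2 knockout cells, is not drawn. Control Efnb2 is highest in cluster 7, control Ephb4 in the venous-like cluster and knockout Ntn4 in cluster 2.

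Weighting the 7 clusters alike in both libraries (715 control and 2362 knockout cells) gave a comparison at equal makeup of these clusters. Clusters 0, 5, 7 and 8 were left out of it. Efnb2 was then 3.74-fold lower (3.31 to 4.22) in the knockout and Unc5b 3.54-fold lower (3.18 to 3.95), both counted as lower, against 3.24% of all genes. Both were smaller than the differences over all retained cells, of which clusters 0 and 7 gave 45.4% and 15.9% of the control UMIs of Efnb2. Ntn4 had a ratio of 7.03 (4.98 to 9.92) and Robo1 of 0.1604 (0.0962 to 0.267), both still below the minimum level. Efnb1 had a ratio of 1.17 (0.915 to 1.49), no longer told apart from 1, and 1.79 over all retained cells. In the same cells without equal weights the ratio of Efnb1 was already 1.24. Efnb2 had 0.2109 and Unc5b 0.2445 there, against 0.268 and 0.282 with equal weights. Ephb4 was at 0.687 (0.601 to 0.785), Efna1 at 0.881 (0.805 to 0.964), Robo4 at 1.36 (1.28 to 1.45) and Plxnd1 at 0.751 (0.713 to 0.791), within the 1.5-fold limit. A ratio below 1 in each of the 7 clusters was met by 10.8% of the 5830 genes and a ratio above 1 by 5.45%. Of the 6 members at the minimum level, Efnb2 and Plxnd1 met the first and Robo4 the second. Unc5b did not meet the first, as it had 0 control and 2 knockout UMIs in the venous-like cluster.

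The ratios differed between ranges of depth. In cells of 1000 to 5000 UMIs (244 control and 95 knockout) the ratio was 0.624 (0.337 to 1.1) for Efnb2 and 0.555 (0.274 to 1.051) for Unc5b, neither told apart from 1. In the 4 deeper ranges Efnb2 lay between 0.151 and 0.178, while Unc5b was 0.3099 (0.231 to 0.414) at 5000 to 10000 UMIs and 0.146 (0.1199 to 0.177) above 40000. The ratio of Robo4 was 2.37 (1.79 to 3.15) in the shallowest cells and 1.33 (1.23 to 1.44) in the deepest, and that of Efnb1 2.75 (1.33 to 5.85) and 1.11 (0.772 to 1.595). Plxnd1 went from 1.19 (0.897 to 1.56) in the shallowest to 0.709 (0.664 to 0.757) in the deepest cells. The part of depth in these differences was not tested.

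In the cells thinned to 10000 UMIs, Efnb2 and Unc5b were found together in 26.8% of control cells, where the product of their shares was 22.9%, and in 2.51% of knockout cells, where it was 1.59%. Unc5b and Ntn4, receptor and ligand family, were found together in 0.762% of control cells (product 0.985%) and 3.61% of knockout cells (product 2.48%). Efnb2 and Ephb4 were found together in 13.6% (product 12.6%) and 3.24% (product 2.78%). These shares describe the cells of 1 library each and were not tested.

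Genes with levels most like those of a member were named by Pearson r of log2(CPM + 10) over the 18 cluster-by-library sums. This is a description, since these points share libraries and depth. With 10 control and 8 knockout points, a difference between the libraries alone can give a high r. For Efnb2 the closest genes were Arhgap10 (r = 0.93), Hey1 (0.91) and Sparc (0.90). Sparc encodes a secreted matrix protein. Hey1 is a Notch target and was itself 7.30-fold lower (6.45 to 8.29) in the knockout, at 45.02 CPM for control and 6.16 CPM for knockout cells. For Unc5b the closest were Bean1 (0.97), the potassium channel gene Kcnj2 (0.93) and the integrin gene Itgb3 (0.92). For Ephb4 they were Heg1 (0.97), Adam15 (0.97) and the junction gene Jam2 (0.95). For Ntn4 they were the protocadherin gene Pcdh7 (0.83), Ankrd1 (0.82) and the thrombospondin gene Thbs1 (0.82), the last 2 being known targets of YAP. At rank 100 of 5830 genes r with Ntn4 was still 0.577, and a link of Ntn4 to YAP was not tested. For Efnb1 the closest were Etl4, the fatty acid transporter gene Cd36 and Mylip (r from 0.91 to 0.94). For Plxnd1 they were Ccdc85b, Frmd4b and the VEGF receptor gene Flt4 (0.90 to 0.91). For Efna1 the closest was another of the 9 genes, Unc5b (0.83), before Slc45a4 and Nckap5l. Robo4 was closest to Cyp2d22, Cst3 and Tmem176b and Robo1 to Mfhas1, Nid1 and Abcc9, all with r of 0.86 or less.

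Of the 76 other genes listed for these pathways 71 were in the tables and 17 reached a mean of 20 CPM. Of these 7 were lower in the knockout (4 without clusters 0, 7 and 8), none was higher and 10 were not counted, against 5.49% lower and 2.74% higher of the 5830 genes. Their median log2 ratio was −0.53, against −0.03 over all genes. Of 6 semaphorins 4 were lower. Sema6d, a transmembrane semaphorin, stood at 168 CPM for control and 55.2 CPM for knockout cells, lower by 3.05-fold (2.91 to 3.196). Sema4c was lower by 2.51-fold (2.34 to 2.71), Sema7a by 2.08-fold (2.01 to 2.15) and Sema3f, a secreted ligand of neuropilins, by 1.62-fold (1.57 to 1.68). Nrp1, the neuropilin that binds both VEGF and class 3 semaphorins and pairs with plexins such as Plxnd1, stood at 191 CPM for control and 109 CPM for knockout cells, lower by 1.76-fold (1.69 to 1.83). Srgap1, a GTPase-activating protein downstream of Robo receptors, was lower by 2.14-fold (1.95 to 2.34), and Fyn, a Src-family kinase downstream of ephrins and netrin receptors, by 1.56-fold (1.51 to 1.62). Plxna2, Nrp2 and Epha2, the receptor of ephrin-A1, were not counted, with ratios of 1.2, 1.103 and 1.14.

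Below the minimum level, the partners of the 9 genes were sparse. Ephb1, an Eph receptor of B-class ephrins, stood at 13.2 CPM for control and 0.657 CPM for knockout cells (360 and 34 UMIs), a ratio of 0.0499 (0.0341 to 0.0711). Sema3g, a secreted semaphorin known from arterial endothelium, stood at 19.8 CPM for control and 5.198 CPM for knockout cells. Ntn1, the founding netrin, stood at 3.73 CPM for control and 1.62 CPM for knockout cells, opposite in direction to Ntn4, and Efna5 at 0.658 CPM for control and 3.52 CPM for knockout cells. Of the genes here below 20 CPM, these were chosen after their values were seen. None of the Slit ligands or of the other Robo receptors reached 20 CPM.

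**Figure D5:**
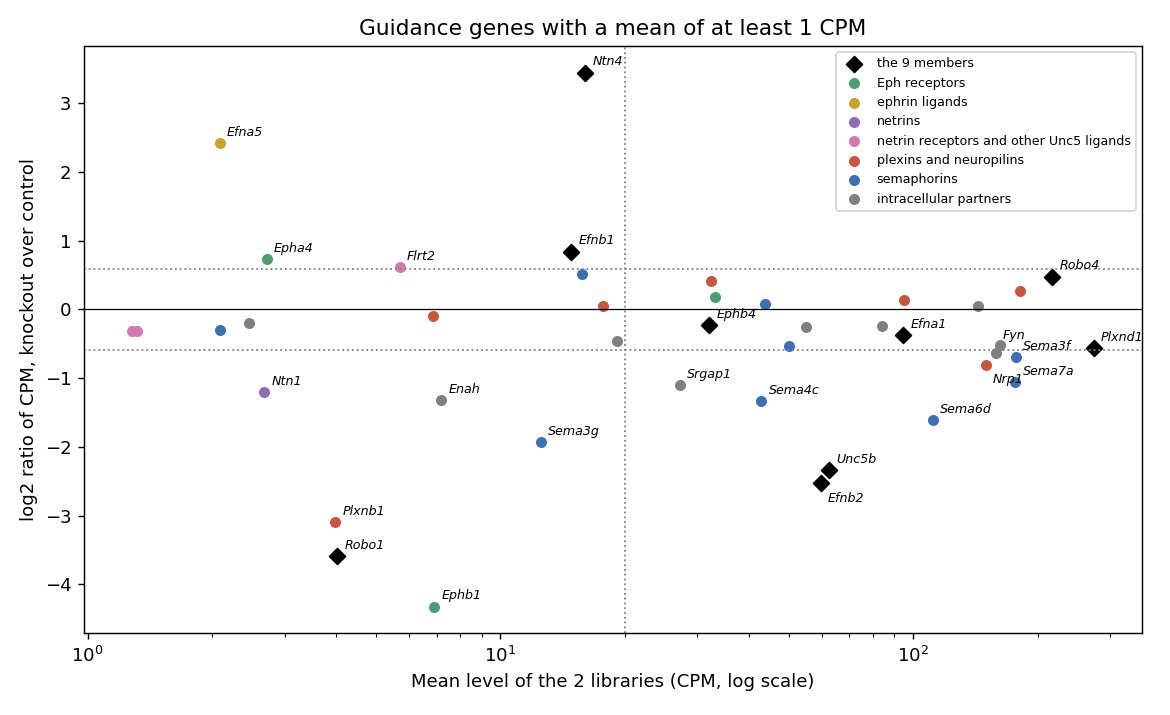
Each guidance gene with a mean of at least 1 CPM by its mean level in the 2 libraries (CPM, log scale) and its log2 ratio of CPM, knockout over control. Diamonds are the 9 genes and circles the others by family, with dotted lines at 20 CPM and at 1.5-fold in either direction. To the right of 20 CPM no gene lies above the upper line, and Efnb2 and Unc5b lie lowest.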

How the data were processed

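Per the labels' protocols, cells sorted on CD31 were run with 10x Genomics 3′ v3.1 chemistry. The submitters' processing notes name Cell Ranger 3.0.0 with Seurat 3.1.1 and mouse genome build mm10 but give no settings. The authors deposited 1 table per library of natural log values, in which a UMI count had been divided by its cell's total, multiplied by 10000 and raised by 1 before the log was taken. This was tested on the values, and whole UMI counts were recovered (100% whole within 0.01 UMI). The deposited tables held 2826 control and 3368 knockout cells (34649992 and 58907098 UMIs), with run medians of 2746 and 19409 UMIs in the control and 14337 and 16723.5 in the knockout. UMI counts had been assumed, so the recovered counts were used. There were 0 columns left unmapped.

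Kept were cells of at least 500 genes and 1000 UMIs with no more than 10% of UMIs from mitochondrial genes (2572 control, 3312 knockout), and the 5% with the highest score against simulated doublets were removed in each library (129 and 166 cells). Leiden clustering followed (2000 variable genes, 30 principal components, 15 neighbours, resolution 0.8). Clusters of a median depth under 0.333 of their own sample's with no endothelial leading gene were left out. So were clusters in which leading markers of another cell type outnumbered endothelial ones by 2 or more. After the data were seen these rules were applied again, because a neutrophil-led cluster of 155 control and 40 knockout cells had remained. Both rounds together left out 993 control and 455 knockout cells. Scanpy 1.11.5, igraph 0.11.9, scikit-learn 1.9.0 and SciPy 1.17.1 were used.

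UMIs were summed per library, with exact Poisson intervals for CPM, exact conditional intervals for ratios, Clopper-Pearson intervals for shares and approximate intervals for ratios at equal cluster weights. A gene with no UMI was set at 3 UMIs for a bound. The size rule was run on simulated data for the comparison of knockout with control over 19831 genes. It called 200 of 200 changed and 0 of 5624 unchanged genes. The simulated counts varied by counting error only, and the changed genes were set beyond both the 1.5-fold and the 20 CPM limits. This run checks the calculation and gives no rate of false calls between real libraries. All 9 members and those of the guidance list counted as lower or higher are named, with 3 closest genes for each member. The members, the lists and the rules were chosen with earlier results of these data known. Alternatives were other scalings, depths, filters, run choices, band limits and cluster resolutions, and 4 were added after the data were seen.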

Additional observations from a re-analysis of the deposited data

Results flagged for a closer look

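Efnb1 differed in opposite directions between clusters. In cluster 2 its ratio of knockout to control was 3.77 (1.35 to 14.6), from 4 control and 36 knockout UMIs, and both knockout runs lay above both control runs. In cluster 4 its ratio was 0.637 (0.433 to 0.9603), from 34 control and 125 knockout UMIs, and both knockout runs lay below both control runs. The difference between the clusters was not tested.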

How the results depend on the processing

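Efnb2 and Unc5b were counted as lower under all 16 settings that gave a ratio, Efnb2 being 4.64 to 6.38-fold lower and Unc5b 4.09 to 5.61-fold lower. Robo1 was 5.74 to 15.4-fold lower, and the ratios of the others were 6.995 to 13.99 for Ntn4, 1.24 to 2.78 for Efnb1, 1.31 to 1.51 for Robo4, 0.738 to 0.847 for Efna1, 0.618 to 0.754 for Plxnd1 and 0.744 to 1.02 for Ephb4, which passed 1 only without clusters led by a marker of another cell type. Plxnd1 was also counted as lower, for 3 lower members, without control run 2, without knockout run 2, without clusters led by a marker of another cell type and with cells thinned to 2000 UMIs. Robo4 was the 1 member counted as higher without knockout run 2 and with each cell weighted equally, and Ntn4 the 1 with totals that left out mitochondrial and ribosomal protein genes. Without a minimum level 2 members were higher, and 14 other guidance genes were lower and 10 higher. The other guidance genes counted as lower were 4 at a ratio of at least 2, and 4 without clusters 0, 7 and 8, an alternative added after the data were seen. The 6 members with a ratio below 1 in every band became 5 without control run 1, control run 2 or knockout run 1, with median-of-ratios scaling, with shallow and leukocyte-led clusters kept, without clusters led by a marker of another cell type, with the cluster rules applied once, without clusters 0, 7 and 8 and without clusters mostly of 1 library. They became 4 with cells thinned to 2000 UMIs. The causes were not tested. No scaling moved the median log2 ratio of all genes by over 0.1. Equal cluster weights were not run with doublets kept or with the cluster rules applied once, since those cells had no cluster. No paired analysis was possible because there was 1 library per group. At this depth Robo1 and control Ntn4 rest on few UMIs.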
